A study of Mus musculus with 3 samples.

Results

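Toll-like receptors are membrane proteins that recognise microbial molecules. The 10 genes described here are Tlr4, its partners Cd14 and Ly96, and the receptor genes Tlr1, Tlr2, Tlr3, Tlr6, Tlr7, Tlr9 and Tlr13. They were chosen by name as a receptor family with the lipid A co-receptors, and all 10 were found among the 55536 annotated genes, of which 22028 code for protein. Their RNA was measured in 1 group of 3 libraries of chromatin-bound RNA of macrophages (BMDM) that had received 100 ng/ml of lipid A for 15 minutes. BMDM are primary macrophages grown in culture from bone marrow, here of the C57BL/6J strain. Lipid A is the membrane anchor of bacterial lipopolysaccharide and the ligand of TLR4. Ribosomal RNA was depleted before total RNA was sequenced. No unstimulated library was analysed here, so every value is a level at 15 minutes and not a change caused by the stimulus. Sex and age were not collected, per the labels, and no gene was altered. The replicates carry separate sample labels but the same donor label, so the spread between them may be technical in part.

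Lipid A bound to CD14 is handed to MD-2, the protein that Ly96 encodes, and the pair of MD-2 and TLR4 then signals. TLR2 pairs with TLR1 or TLR6 at the cell surface and recognises bacterial lipopeptides. TLR3, TLR7, TLR9 and TLR13 sit in endosomes and recognise nucleic acids, which are double-stranded RNA for TLR3, single-stranded RNA for TLR7, DNA with unmethylated CpG for TLR9 and bacterial ribosomal RNA for TLR13. Chromatin-bound RNA holds transcripts that are still being made or have not left the nucleus. Its level therefore need not follow the level of the protein or of the cytoplasmic mRNA.

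Promoters of 3 genes are shown because these genes mark the ends of the results below. Tlr2 had the widest spread between libraries of the 10 genes, Tlr13 the narrowest, and Tlr9 the lowest level. Each line gives the 250 bases before the RefSeq start, 5′ to 3′ on the strand of the gene, from the RefSeq promoters of build GRCm38.p6. Capitals mark letters that match a searched motif, on either strand, and positions count back from -1 at the last base before the start. The Tlr2 promoter is at chr3:83841609-83841858 on the minus strand, the Tlr13 promoter at chrX:106143025-106143274 on the plus strand and the Tlr9 promoter at chr9:106222348-106222597 on the plus strand.
Tlr2: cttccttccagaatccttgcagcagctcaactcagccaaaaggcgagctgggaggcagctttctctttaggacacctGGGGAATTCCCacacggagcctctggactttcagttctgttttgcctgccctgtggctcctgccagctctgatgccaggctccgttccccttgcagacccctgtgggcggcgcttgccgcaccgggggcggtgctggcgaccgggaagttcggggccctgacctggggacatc
Tlr13: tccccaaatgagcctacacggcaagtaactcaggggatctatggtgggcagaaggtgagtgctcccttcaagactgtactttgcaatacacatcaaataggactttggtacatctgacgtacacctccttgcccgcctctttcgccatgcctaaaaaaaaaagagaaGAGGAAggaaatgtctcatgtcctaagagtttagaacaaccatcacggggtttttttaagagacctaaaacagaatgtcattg
Tlr9: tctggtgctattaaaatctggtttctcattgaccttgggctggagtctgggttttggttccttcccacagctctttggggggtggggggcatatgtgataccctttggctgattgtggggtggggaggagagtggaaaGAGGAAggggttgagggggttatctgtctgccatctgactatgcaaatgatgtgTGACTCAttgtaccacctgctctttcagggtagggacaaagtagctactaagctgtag
The capitals in Tlr2 lie between -173 and -163 and hold overlapping matches, on both strands, to GGG and CC with 5 free bases between them, a loose form of the kappaB motif bound by NF-kB. In Tlr13 they mark GAGGAA at -83 to -78, a core that PU.1, a transcription factor of the macrophage lineage, can bind. In Tlr9 they mark GAGGAA at -112 to -107 and TGANTCA, the AP-1 motif, at -58 to -52.

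Short motifs of this kind are common, and matches describe letters only. RefSeq promoters were matched for 6 of the 10 genes, namely Tlr1, Tlr2, Tlr3, Tlr6, Tlr9 and Tlr13, while Tlr4, Cd14, Ly96 and Tlr7 had no entry. The 6 genes have 8 promoter entries, and a gene counted as matched if any of its entries matched. The percentages are shares of single entries, so a gene with more entries had more chances to match. The kappaB form matched in 3 of the 6, Tlr2, Tlr3 and Tlr6, against 45.8% of all 32851 promoters of the same length. GAGGAA matched in 3 of the 6, Tlr1, Tlr9 and Tlr13, against 23.3% of all promoters. TGANTCA was found in Tlr9 alone of the 6, against 6.75% of all promoters. Of the 6, Tlr6 alone matched the core of the interferon-stimulated response element, GAAA repeated after 2 free bases, which 2.98% of all promoters hold. It alone also matched TATAAA, which 12.4% hold. The Tlr6 matches come from different promoter entries, so they do not all lie in the same window, and some overlap in position. TGACGTCA, the cyclic AMP response element, matched in 0 of the 6, against 1.55% of all promoters. The annotated GENCODE start lies 159 bases from the RefSeq start in Tlr2, 71 bases in Tlr13 and 0 bases in Tlr9, so these windows are not the only possible promoters.

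The genes are spread over the genome, and most of the receptors are built from a single large coding exon. In the mm10 assembly with GENCODE M21, Tlr4 (ENSMUSG00000039005.13) spans chromosome 4 from 66827584 to 66930284 on the plus strand, Cd14 (ENSMUSG00000051439.7) chromosome 18 from 36725067 to 36726798 on the minus strand, and Ly96 (ENSMUSG00000025779.10) chromosome 1 from 16688051 to 16709611 on the plus strand. Tlr1 (ENSMUSG00000044827.10) and Tlr6 (ENSMUSG00000051498.6) are neighbours on the minus strand of chromosome 5, at 64924679 to 64933563 and 64952031 to 64960097, with a gap of 18.5 kb and no gene between them. Tlr2 (ENSMUSG00000027995.10) lies on chromosome 3 at 83836272 to 83841767 on the minus strand, and Tlr3 (ENSMUSG00000031639.12) on chromosome 8 at 45395665 to 45411080 on the minus strand. Tlr7 (ENSMUSG00000044583.13) lies on the minus strand of chromosome X at 167304929 to 167330558 and Tlr13 (ENSMUSG00000033777.4) on its plus strand at 106143204 to 106160493. Tlr9 (ENSMUSG00000045322.10) lies on chromosome 9 at 106222598 to 106226883 on the plus strand. In 7 of the 10 genes, 1 exon holds at least 90% of the coding bases, the exceptions being Tlr4 at 89.7%, Tlr3 at 68.3% and Ly96 at 23.3%. Tlr3 is the only one of the 10 that overlaps another annotated gene, Gm45542 on the opposite strand, which had 0 TPM.

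Among the 10 genes and the other 4 Toll-like receptor genes of the mouse, Tlr1 and Tlr6 were the 1 pair of 91 whose annotated transcripts share any stretch of 31 bases. They share 607 such stretches, which are 18.3% of those of Tlr1 and 16.4% of those of Tlr6, and their longest identical run is 229 bases. Reads from those stretches can be split between the genes only by estimation. The deposited posterior SD of the count was 1.19, 1.64 and 1.61 counts in replicates 1, 2 and 3 for each of Tlr1 and Tlr6, and 0 for the other 8 genes. Against 581, 633 and 829 expected counts of Tlr1 and 153, 145 and 185 of Tlr6, that uncertainty was small.

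Depth was 10974934, 21376404 and 14376665 expected counts in replicates 1, 2 and 3. The libraries were made from 1 µg, 250 ng and 500 ng of RNA. TPM (transcripts per 1000000) is a level per effective length and can be set side by side between genes, but it also depends on what else fills the library. Small nuclear and nucleolar RNA took 63.8%, 58.6% and 53.8% of all TPM, and 10251 protein-coding genes deviated from their own mean log2 TPM by a median of 0.14, -0.43 and 0.30. Most genes are thus below their mean TPM in replicate 2, and spread between libraries is given below on counts scaled by the trimmed mean of M-values (TMM), which removes most of that shift. Macrophage markers reached 1 TPM in all 3 libraries in 9 of 9 cases, against 42.4% of all protein-coding genes. Their summed levels were 760, 446 and 689 TPM, so the labelled cell type is carried by its markers. Of 27 markers of B cells, dendritic cells, neutrophils, T and NK cells, stroma and endothelium, 0 reached 1 TPM in all 3 libraries of the gene table. The dendritic cell marker Zbtb46 came closest, at 1.67, 0.71 and 1.59 TPM from 115, 105 and 120 counts. Summed levels there were 0.07 to 0.13 TPM for 5 B cell markers, 0.89 to 2.02 TPM for 5 dendritic cell markers, 0.71 to 1.29 TPM for 7 neutrophil markers, 0 to 0.02 TPM for 5 T and NK cell markers and 0.25 to 1.07 TPM for 5 stromal and endothelial markers. Cd79b, Pax5, Ly6g, Elane and Mpo had 0 counts in the gene table. In the second quantification 5 of the 27 reached 1 TPM in all 3 libraries. They were the T cell gene Cd3d, at 16.7, 11.5 and 20.2 TPM, the endothelial gene Pecam1, at 5.56, 4.79 and 6.92 TPM, and Zbtb46, Siglech and Col1a1, each under 4 TPM. Mpo had 1.55, 0.817 and 2.12 TPM there, and Elane stayed at 0. The part of these markers in the results below was not tested.

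The 10 genes spanned a level from that of abundant transcripts to the detection limit. A gene was called detected at 1 TPM or more in all 3 libraries, which 9 of the 10 genes reached, against a background of 42.4% of all protein-coding genes. Tlr9 fell short in replicate 2 alone. The median of the 10 was 24.9, 7.38 and 23.3 TPM in replicates 1, 2 and 3, a mean of 18.5 ± 9.69 TPM (SD, n = 3). All protein-coding genes had a median of 0.543 ± 0.158 TPM, and the 9345 detected ones a median of 10.1 ± 2.46 TPM (SD, n = 3 each). In replicate 2 the median of the 10 genes was level with that of detected genes, 7.38 against 7.41 TPM. On the scale of log2(TPM + 1), where low genes lie closer together than their TPM would put them, the median of the 10 was 4.10 ± 0.94 and that of the detected genes 3.44 ± 0.34 (SD, n = 3 each). In such bulk samples, fewer cells that transcribe a gene and less RNA per cell cannot be told apart.

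**Figure D1:**
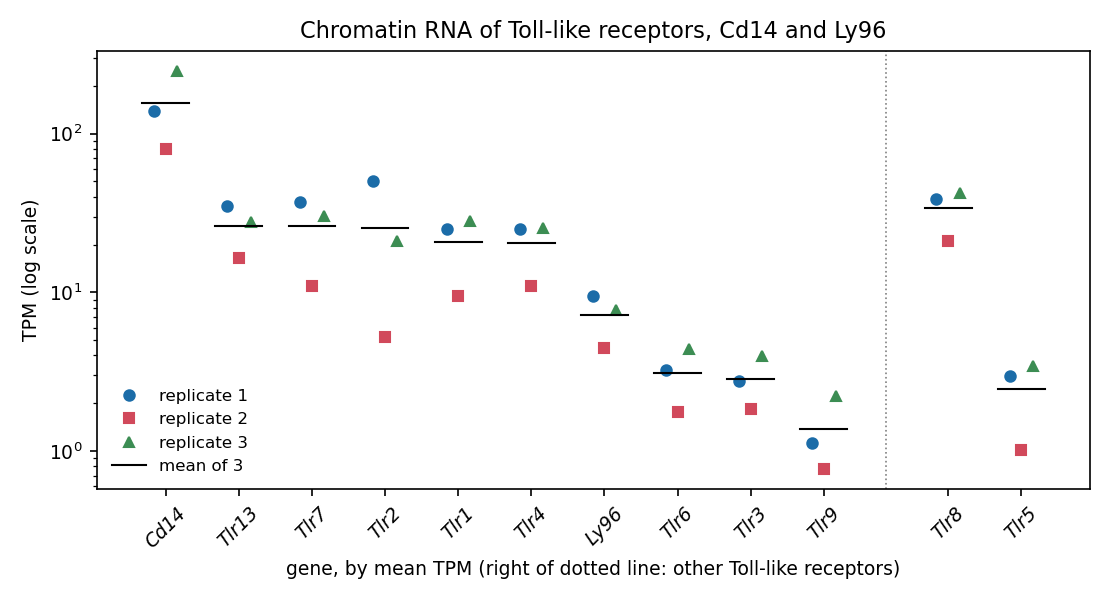
Level of each gene in TPM, on a log axis, with 1 point per library and a line at the mean of 3 libraries. Cd14 stands alone at 80.3 to 249.6 TPM, 5 receptors lie at similar means between 20.5 and 26.4 TPM, and replicate 2 is the lowest point of all 10 genes. The median log2 TPM deviation of 10251 protein-coding genes was also lowest in replicate 2, at -0.43. Tlr8 and Tlr5, right of the dotted line, are receptors outside the 10.

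Of the lipid A receptor complex, the co-receptor Cd14 was the highest and Ly96 the lowest in each library. Cd14 stood at 139, 80.3 and 249.6 TPM in replicates 1, 2 and 3, from 1935, 2298 and 3689 expected counts. Its mean of 156 ± 86.0 TPM (SD, n = 3) was the highest of the 10 genes, and in each library it lay above at least 98.6% of protein-coding genes. Tlr4, the signalling receptor, stood at 24.9, 11.0 and 25.6 TPM from 1312, 1229 and 1474 counts, with replicates 1 and 3 close together and replicate 2 at less than either. Ly96, which encodes the lipid A binding MD-2, stood at 9.52, 4.49 and 7.73 TPM, a mean of 7.25 ± 2.55 TPM (SD, n = 3). These values rest on only 55, 55 and 49 expected counts. The second deposited quantification gave Ly96 182, 215 and 217 estimated counts. In the gene table the ranges of the 3 genes over the libraries did not overlap. In the second quantification Ly96 ran over 11.8 to 26.4 TPM and Tlr4 over 16.3 to 35.4 TPM, so that these ranges did.

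Ratios within a library remove its scaling. Cd14 exceeded Tlr4 by 5.59, 7.32 and 9.76 times in replicates 1, 2 and 3, and the log2 ratio of TPM + 1 was 2.81 ± 0.40 (SD, n = 3). The ratio had the same direction in 3 of 3 libraries, but its size depended on the table. It was 2.09 ± 0.31 in the second deposited quantification and 2.19 when counts were divided by the length of the longest isoform. Ly96 stood at 0.382, 0.409 and 0.302 of the Tlr4 level, a log2 ratio of -1.34 ± 0.24 (SD, n = 3). In the second quantification the same ratio was nearer to equality, at -0.47 ± 0.12, and it was -1.86 with counts per longest isoform. An exact sign-flip test over 3 libraries cannot go below a two-sided p of 0.25, and none was run on the ratios.

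Among the surface receptors for lipopeptides, Tlr2 and Tlr1 stood well above Tlr6. Tlr1, the partner for triacylated lipopeptides, had 25.0, 9.51 and 28.3 TPM, a mean of 20.9 ± 10.01 TPM (SD, n = 3). Tlr6, the partner for diacylated lipopeptides, had 3.23, 1.76 and 4.38 TPM, a mean of 3.12 ± 1.31 TPM (SD, n = 3). Tlr1 exceeded its neighbour Tlr6 by 7.73, 5.40 and 6.45 times, so genes with 18.5 kb between them and a shared stretch of sequence differed in level in every library. Tlr2, the partner common to both, had 50.4, 5.24 and 20.95 TPM from 1925, 460 and 909 counts. The deposited interval around its posterior mean was 44.5 to 48.7 TPM in replicate 1, 4.60 to 5.52 TPM in replicate 2 and 18.1 to 20.7 TPM in replicate 3, and no pair of these intervals overlaps. The level of the interval is not given in the sources used here. Each interval comes from 1 library alone, so it does not measure the spread between libraries. The deposited TPM of replicates 1 and 3, at 50.4 and 20.95, lie above their own intervals. By deposited TPM, Tlr2 was above Tlr1 in replicate 1, by 2.02 times. It was below Tlr1 in replicates 2 and 3, at 0.551 and 0.741 of the Tlr1 level.

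The endosomal receptors fell into a high and a low pair. Tlr13, a receptor that mice have and humans lack, had 34.9, 16.6 and 27.7 TPM, a mean of 26.4 ± 9.26 TPM (SD, n = 3). Tlr7 had 37.1, 11.0 and 30.4 TPM, a mean of 26.15 ± 13.5 TPM (SD, n = 3). Both lay above at least 83.97% of protein-coding genes in each library. Tlr3 had 2.76, 1.85 and 3.98 TPM, a mean of 2.86 ± 1.07 TPM (SD, n = 3), from 114, 112 and 151 counts. Tlr9 was the lowest of the 10, at 1.12, 0.77 and 2.21 TPM from 50, 79 and 112 counts, a mean of 1.37 ± 0.751 TPM (SD, n = 3). Tlr7 exceeded Tlr9 by 33.1, 14.3 and 13.7 times and Tlr13 exceeded it by 31.2, 21.5 and 12.5 times. In the second quantification both ratios were larger, at 168, 67.8 and 60.9 for Tlr7 over Tlr9 and 79.2, 50.6 and 27.7 for Tlr13 over Tlr9. The median of the surface receptors Tlr1, Tlr2, Tlr4 and Tlr6 was above that of the endosomal receptors Tlr3, Tlr7, Tlr9 and Tlr13 by 1.16, 0.47 and 1.02 on the log2(TPM + 1) scale, a mean difference of 0.88 ± 0.36 (SD, n = 3). Levels within each class ranged more widely than this difference, as Tlr6 and Tlr9 show. The direction also depended on which genes were counted. With Tlr5 added to the surface class and Tlr8 to the endosomal class, the surface median was 24.9, 5.24 and 20.95 TPM in replicates 1, 2 and 3. The endosomal median was then 34.9, 11.0 and 27.7 TPM, the higher of the classes in each library.

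Ordered by mean TPM, the 10 genes ran Cd14, Tlr13, Tlr7, Tlr2, Tlr1, Tlr4, Ly96, Tlr6, Tlr3 and Tlr9. Of the 45 pairs, 37 had the same direction in all 3 libraries and 8 did not. Of the 8, 4 included Tlr2, against Tlr13, Tlr7, Tlr1 and Tlr4. Among the 9 pairs of neighbours in the order, 4 were separated, meaning that the direction was the same in each library and the mean log2 ratio exceeded its SD. Those 4 were Cd14 over Tlr13, at 2.43 ± 0.61, Tlr4 over Ly96, at 1.34 ± 0.24, Ly96 over Tlr6, at 1.00 ± 0.31, and Tlr3 over Tlr9, at 0.72 ± 0.10 (log2 of TPM + 1, SD, n = 3 each). The neighbours Tlr13 and Tlr7, Tlr7 and Tlr2, Tlr2 and Tlr1, Tlr1 and Tlr4, and Tlr6 and Tlr3 did not differ beyond their spread. Between Cd14 and Ly96 lie 5 receptors with no separated neighbours, although Tlr13 over Tlr4, at 0.38 ± 0.24, and Tlr7 over Tlr1, at 0.28 ± 0.24, were separated by the same measure (log2 of TPM + 1, SD, n = 3 each). The means of these 5 lay between 28.7 TPM for Tlr4 and 110 TPM for Tlr7 in the second quantification.

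Of the other 4 receptor genes, Tlr8 and Tlr5 lay within the range of the 10, and Tlr11 and Tlr12 below it. Tlr8, which lies 40.6 kb from Tlr7 on chromosome X with no gene between, had 39.0, 20.9 and 42.0 TPM, a mean of 34.0 ± 11.4 TPM (SD, n = 3). Its relation to Tlr7 depended on the table. In the gene table Tlr7 was the lower of the pair in all 3 libraries, while in the second quantification Tlr7, at 169, 42.6 and 120 TPM, was above Tlr8, at 72.8, 32.01 and 62.3 TPM. Tlr5, the flagellin receptor, had 2.99, 1.01 and 3.42 TPM. Tlr11 had 1, 0 and 3 counts, and Tlr12 had 0 counts in each library, which allows up to 3 counts per library by counting error alone. Both recognise profilin of protozoan parasites in mice.

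The 10 genes differed in their spread between libraries. On TMM-scaled counts, the median SD of the log2 values over libraries was 0.33 for the 10 genes and 0.29 for 10251 protein-coding genes of a mean of at least 1 TPM, and 2 of the 10 lay under that background median. Tlr2 was the widest, with deviations from its own mean of 1.32, -1.25 and -0.07 in replicates 1, 2 and 3. Its SD of 1.28 lay above 99.4% of these genes, and 59 other genes varied at least as much. The highest library exceeded the lowest by 5.92 times. The SD was 0.83 without replicate 1, 0.98 without replicate 2 and 1.80 without replicate 3, each wider than the SD of any of the other 9 genes over all libraries. Starting RNA followed the same order as Tlr2, being largest (1 µg) for replicate 1 and smallest (250 ng) for replicate 2. Depth ran in the reverse order, at 10974934, 21376404 and 14376665 expected counts in replicates 1, 2 and 3. Starting RNA and depth cannot be told apart here, and their part in the result was not tested.

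Tlr13 was the narrowest, with deviations of 0.06, 0.01 and -0.07, an SD of 0.07 that only 5.39% of the background genes undercut. Tlr7 followed Tlr2 in width and in the order of its libraries, at 0.50, -0.51 and 0.00. Cd14, at -0.12, -0.38 and 0.50, and Tlr9, at -0.33, -0.18 and 0.51, were highest in replicate 3. Tlr4, at 0.25, -0.35 and 0.10, Tlr1, Tlr3 and Tlr6 had SDs between 0.30 and 0.34, and Ly96, whose counts were few, had an SD of 0.28. After TMM scaling, 8 of the 10 genes were lowest in replicate 2. On deposited TPM all 10 were, but there the 10251 protein-coding genes also had a median deviation of -0.43 in replicate 2. The share of all genes that were lowest in replicate 2 is not given here. On TMM-scaled counts the median deviation of the 10 was 0.17, -0.36 and 0.14 in replicates 1, 2 and 3, against -0.06, 0.06 and 0.00 for the background. The summed level of the 9 macrophage markers on the same TMM scale was highest in replicate 2, at 1729, 2182 and 1723 counts per 1000000.

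**Figure D2:**
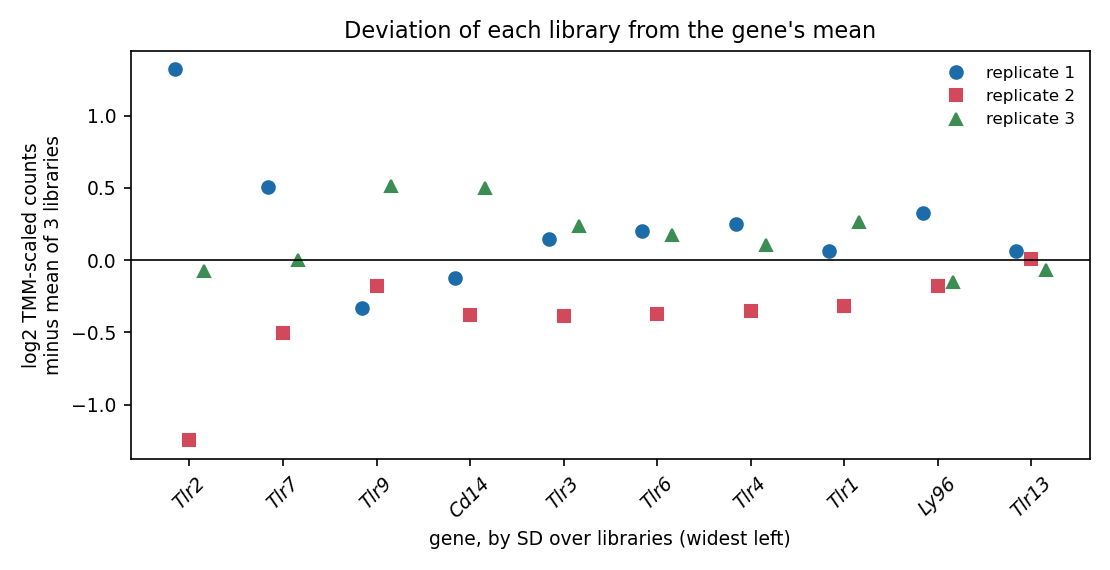
Deviation of each library from the gene's mean of log2 TMM-scaled counts over 3 libraries, with genes ordered by SD from left to right. Tlr2 runs from 1.32 in replicate 1 to -1.25 in replicate 2, the points of Tlr13 lie within 0.07 of its mean, and 8 of 10 genes have replicate 2 as their lowest point.

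The 10 genes have 33 annotated isoforms, of which 3 are retained-intron models, meaning transcripts that keep an intron and are not annotated as coding. These are Cd14-202, Ly96-203 and Tlr13-202. Their summed share of the TPM of the 10 genes was 27.8%, 39.6% and 38.7% in replicates 1, 2 and 3, a mean of 35.4 ± 6.54%, against 39.3 ± 2.53% for all protein-coding genes (SD, n = 3 each). By expected counts the share was 11.8 ± 3.37% for the 10 genes, against 25.1 ± 3.71% for all protein-coding genes (SD, n = 3 each). The difference between the measures comes with length, since the retained-intron models have 868, 666 and 337 bases while TPM divides by effective length. The 7 other genes have no retained-intron model, so they could add nothing to the share, and Tlr2 and Tlr9 have 1 isoform each.

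Cd14 carried most of that share. Its retained-intron model took 53.7%, 64.1% and 58.6% of its TPM, or 74.7, 51.5 and 146 TPM, and its coding isoform Cd14-201 took 64.5, 28.8 and 103 TPM. The mean share was 58.8 ± 5.23%, and 55.9 ± 5.63% in the second quantification (SD, n = 3 each), so the split of Cd14 was alike in both tables. Cd14 has a single short intron, and its coding isoform has 1641 bases against 868 in the retained-intron model. By expected counts the coding isoform had more in each library, at 1260, 1276 and 2261 against 675, 1022 and 1428. The larger share of the retained-intron model by TPM thus comes with its length. For Ly96 the retained-intron share was 26.5 ± 5.33% in the second quantification and 47.8 ± 3.18% in the first transcript table (SD, n = 3 each). For Tlr13 it was 61.9 ± 6.10% in the second quantification and 23.02 ± 10.1% in the first table (SD, n = 3 each). These 2 genes thus differed between the tables in opposite directions. Tlr13-202, of 337 bases, had only 23, 10 and 8 expected counts in the first table, beside 1197, 1656 and 1370 of Tlr13-201. In the second quantification it had 137, 123 and 111 estimated counts, beside 1523, 2276 and 1804. Its share was thus far smaller by counts than by TPM.

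**Figure D3:**
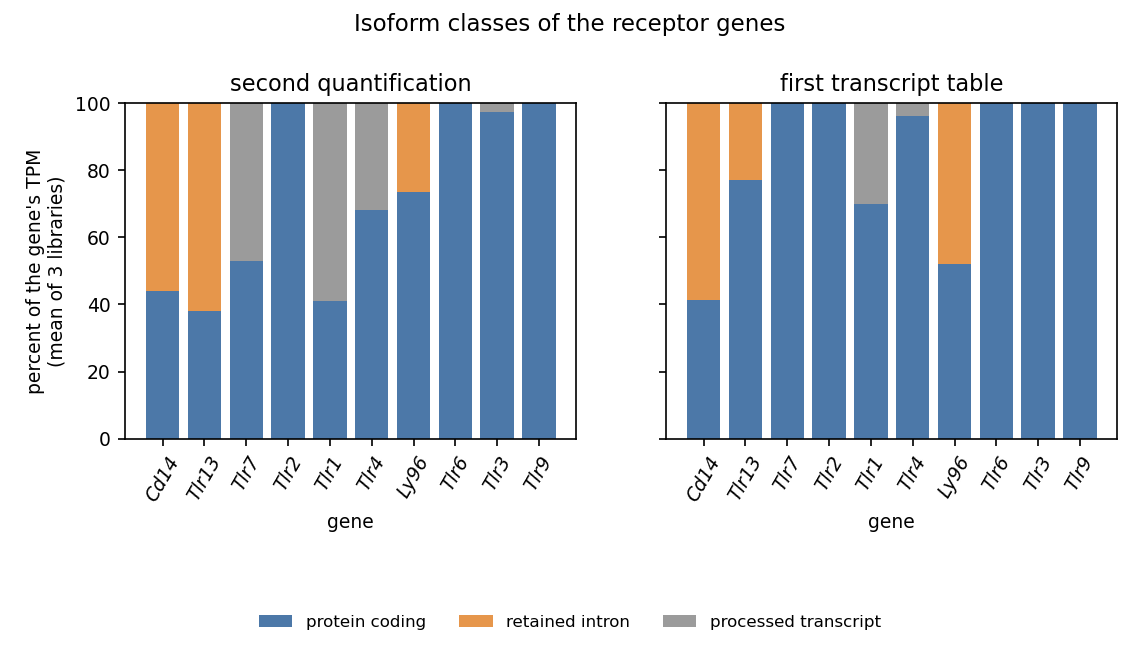
Share of each gene's TPM, in percent and as the mean of 3 libraries, in isoforms annotated as protein coding, retained intron or processed transcript, for the second quantification and for the first transcript table. Cd14 is split alike in both, while Tlr7, Tlr13, Tlr1 and Tlr4 show larger non-coding shares in the second quantification.

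Processed transcripts, short models without an annotated reading frame, differed in the same way. Tlr1-203, of 419 bases, took 59.0 ± 5.38% of the Tlr1 TPM in the second quantification and 30.0 ± 8.51% in the first table (SD, n = 3 each). By counts its share was far smaller. It had 28.6, 12 and 23.5 expected counts in the first table, against 581, 633 and 829 for the gene. In the second quantification it had 73.0, 134 and 147 estimated counts, against 825, 1054 and 1219. Tlr4 gave 31.9 ± 9.21% to such models in the second quantification and 3.797 ± 3.65% in the first table (SD, n = 3 each). For Tlr7 the gap was widest, since its processed transcript of 261 bases had 78.03, 20.5 and 56.4 TPM in the second quantification and 0 in the first table. Of the 33 isoforms, 10 have fewer than 500 bases, and the labels give a fragment size of 250 to 400, so the effective length of such models is short. The part of fragment size in these shares was not tested.

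The second quantification detected 9 of the 10 genes, against 53.1% of all protein-coding genes, and the gene it missed was again Tlr9 in replicate 2, at 0.628 TPM. It gave higher TPM than the gene table, by a median log2 ratio over the 10 genes of 0.37 ± 0.06, against 0.66 ± 0.11 over 9345 detected protein-coding genes (SD, n = 3 each). By counts the median log2 ratio was 0.49 ± 0.05, against 0.75 ± 0.05 over the same genes (SD, n = 3 each). Once both tables were rescaled to protein-coding genes, the median log2 ratio of the 10 was -0.39, so the direction of this difference depends on the scaling. Tlr7 was the highest of the receptors in it, at a mean of 110 ± 63.7 TPM (SD, n = 3), 4.12 times the gene table, although its counts were only 1.41 times as many. Ly96 was the other way round, with 3.88 times as many counts and 2.79 times the TPM. Cd14 and Tlr9 were lower in TPM, at 0.846 and 0.868 times the gene table. The levels of Tlr4, Ly96, Tlr1, Tlr7 and Tlr13 moved by more than 1 SD of the gene table values, and those of the other 5 genes by less.

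**Figure D4:**
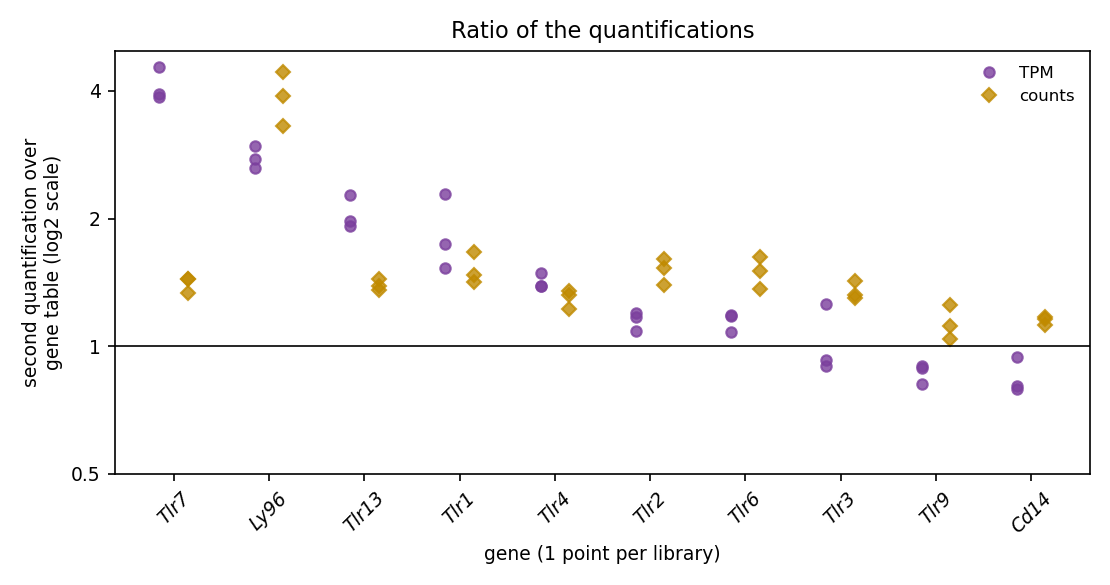
Ratio of the second quantification to the gene table for each gene and library, on a log2 axis, for TPM and for counts. TPM ratios of Tlr7 lie between 3.87 and 4.56 while its count ratios average 1.41, Ly96 is high in both, and the TPM ratios of Tlr9 and Cd14 lie under 1.

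Genes that work with these receptors were described by lists of known function. Proteins that fold and move the receptors had all 10 of 10 genes detected, against 42.4% of protein-coding genes, with a median level of 33.7 TPM. The highest were Unc93b1, which carries nucleic acid receptors to endosomes, at 160 ± 33.5 TPM, and the chaperone gene Hsp90b1, at 95.7 ± 14.3 TPM (SD, n = 3 each). The lowest were Cnpy4, at 2.84 ± 1.08 TPM, and the cargo receptor gene Tmed7, at 3.99 ± 1.51 TPM (SD, n = 3 each). Endosomal proteases and nucleases, which trim receptors or digest their ligands, had 9 of 9 detected and a median of 48.1 TPM. Among them Ctsb was at 508 ± 74.8 TPM and Lgmn at 129 ± 12.3 TPM, while Rnaset2a was at 4.15 ± 1.24 TPM and Rnaset2b at 24.3 ± 8.56 TPM (SD, n = 3 each).

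Genes that handle lipid ligands had 5 of 6 detected, against 42.4% of protein-coding genes, and a median of 23.3 TPM. In the second quantification 6 of 6 were detected, against 53.1% of protein-coding genes, with Lbp at 3.64, 1.37 and 3.29 TPM. The levels that follow are those of the gene table. Cd180, a receptor relative that pairs with Ly86, was at 120 ± 40.9 TPM and the scavenger receptor gene Cd36 at 38.7 ± 5.21 TPM (SD, n = 3 each). The low end held the integrin gene Itgam, at 15.4 ± 2.50 TPM, and Lbp, the serum protein that brings lipopolysaccharide to CD14, at 0.35 ± 0.155 TPM (SD, n = 3 each). Receptor-proximal adaptors were lower, with 4 of 5 detected, against the same 42.4%, and a median of 5.16 TPM. Ticam2, the bridging adaptor of TLR4, was at 13.6 ± 7.66 TPM and Myd88, the adaptor of most of the receptors, at 7.06 ± 1.70 TPM (SD, n = 3 each). Tirap was at 2.29 ± 1.00 TPM and Sarm1, a TIR-domain enzyme, at 0.0567 ± 0.0306 TPM (SD, n = 3 each). Genes that restrain the receptors had 3 of 5 detected, against the same 42.4%, and a median of 20.97 TPM. In the second quantification 4 of 5 of these were detected, against 53.1%. Lyn was at 66.1 ± 22.0 TPM and Rnf216 at 42.7 ± 12.5 TPM, while Sigirr was at 0.323 ± 0.0513 TPM and Il1rl1 at 0.21 ± 0.193 TPM (SD, n = 3 each).

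The genes closest to Tlr4 in level were Dcun1d1, Cab39 and Senp7, each with a largest difference of 0.04 from Tlr4 in log2(TPM + 1) over the 3 libraries. Around Cd14 the field was thinner, and the closest were Plgrkt at 0.35, Srsf2 at 0.37 and Fabp5 at 0.42, given as the largest difference in any library. These are likenesses of level over 3 libraries.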

How the data were processed

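The samples were 3 libraries of chromatin RNA in 1 group, with replicate numbers from the labels. Per the file headers, the authors' gene table and first transcript table give expected counts and TPM, the transcript table also the percent of a gene's abundance in each isoform, and the gene table posterior means and intervals of TPM. The second quantification is another table deposited per library, with estimated counts and TPM of transcripts, summed here per gene. Per the deposited text, the assembly was mm10 with annotation GENCODE M21. The aligner and programs, with their use of strand, were not given in the sources used here. Thus a gene and its antisense partner may share reads.

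The 10 genes, the lists and the isoform classes were chosen with earlier results of these data known. Named were the 10 genes, the other Toll-like receptors, the 2 highest and 2 lowest genes of 5 pathway lists, and for Tlr4 and Cd14 the 3 genes nearest in level. Ly86 and Gm45542 were named outside that rule, as were the marker genes, all after their values were seen. Expected counts were rounded and scaled with edgeR 4.0.16 (TMM) over genes with at least 10 counts in at least 1 library. DESeq2 1.42.0 size factors were an alternative. R was version 4.3.3, Python 3.11.15, pandas 2.3.3, numpy 2.4.6 and scipy 1.17.1. The pseudocount was 1. No test was made, since there is 1 group. The TMM deviations and the motif search were tested on simulated data. The floor is 3 counts, for counting error only.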

Additional observations from a re-analysis of the deposited data

How the results depend on the processing

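No paired analysis was possible because the libraries form 1 group. Of 88 recomputed values, 57 of them planned, 72 stayed near the reported value, 15 moved further and 1 reversed. Part of the 72 were near by construction. Leaving out 1 of 3 libraries cannot move the mean of a level, ratio or share by more than its SD. Sums of the first transcript table repeat the gene table. A change of library scaling largely cancels in a ratio between genes of the same library. Near means within the SD over libraries for a level, ratio or share, within 1.5 times for a count, within the standard error over the 10 genes for their median SD and within 0.5 of its own size for the spread of Tlr2. Chosen after seeing the data were 31 values, namely 20 levels of single genes, 6 for the spread of Tlr2 and 5 with counts per longest isoform. The reversed value was the median log2 ratio of the second quantification to the gene table, 0.37, which was -0.39 once both tables were rescaled to protein-coding genes; by counts it was 0.49. Rescaling also moved the median level of the 10 genes to 6.23, against 4.10 on the log2 scale. With the second quantification, Cd14 over Tlr4 was 2.09, Ly96 over Tlr4 -0.47 and the retained-intron share 27.6%. With counts per longest isoform these log2 ratios were 2.19 and -1.86, and by expected counts the retained-intron share was 11.8%. The median SD between libraries was 0.73 on deposited TPM and 0.45 on rescaled TPM, against 0.33. The cause was not tested beyond what each change of scale does by construction. Without 1 replicate, detected genes numbered 9 to 10, pairs in 1 direction 38 to 41, the median level was 3.81 to 4.65, Cd14 over Tlr4 2.60 to 3.00, Ly96 over Tlr4 -1.45 to -1.21, surface minus endosomal receptors 0.74 to 1.09, the retained-intron share 33.2% to 39.1%, the median SD 0.24 to 0.40 and the ratio of the quantifications 0.35 to 0.40. The log2 ratios and the difference between classes kept their direction, as they must when each library has it. Counts of detected genes and of pairs could only stay or rise, since both ask for a condition in every library used. The difference between classes did reverse once Tlr5 and Tlr8 were counted, as given above. Ly96 and Tlr9 rest on the fewest counts, so depth limits them most.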

Other observations

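The library profile of Tlr2 was shared by a few genes, picked after the values were seen and given as a description. Of the 59 other protein-coding genes that varied at least as widely, 17 were highest in replicate 1 and lowest in replicate 2, as Tlr2 was. The share of all 10251 genes with this order is not given here. Whether 17 of 59 is more than usual therefore cannot be said. Among genes of a mean of at least 5 TPM, the closest to Tlr2 was Cxcl1, which encodes a neutrophil chemokine, with deviations of 1.34, -1.28 and -0.06 and levels of 56.7, 5.59 and 23.9 TPM in replicates 1, 2 and 3. It differed from Tlr2 by at most 0.03 on the log2 scale in any library. Cxcl10, an interferon-inducible chemokine gene, differed by at most 0.12 and had 18.2, 2.11 and 7.41 TPM. Ptgs2, which encodes the inducible cyclooxygenase, differed by at most 0.14 and had 25.6, 2.95 and 9.69 TPM. Gm12216, Clec4e and Arl5c followed, at 0.16, 0.18 and 0.20. Clec4e, which encodes the glycolipid receptor Mincle, had 56.4, 4.25 and 18.8 TPM. Starting RNA, depth and the order of these libraries run together, and the part of starting RNA or depth was not tested.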
